A study of Mus musculus with 4 samples.

Results

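The troponins and tropomyosins are the proteins that switch the thin filament of muscle on and off with calcium. Of the 7 genes chosen by name (Tnnt1, Tnnt3, Tnni2, Tnnc2, Tpm1, Tpm2 and Tpm3), 6 were among the 1000 genes of the deposited read count table. Tnnt3, the fast troponin T gene, is not one of them and was not analysed here. Of 5 further troponin and tropomyosin genes looked for, Tnnc1 was listed and is described beside the members. The 7 family genes listed carried 7 RefSeq identifiers that match the same symbols in the RefSeq gene table.

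The samples were tibialis anterior, a leg muscle, of Dmd Dup2 mice, a model of Duchenne muscular dystrophy with a duplication of dystrophin exon 2, either given scAAV9.U7-ACCA or left as untreated controls. The vector, a self-complementary AAV of serotype 9, carries an exon-skipping U7 small nuclear RNA. Every library came from Dmd Dup2 muscle, so no comparison with wild-type muscle is made. Each muscle gave a total RNA library, here called mRNA, and a library of ribosome footprints, the mRNA fragments that ribosomes protect, and reads were 50 nt long. There was 1 library for each of treated mRNA, untreated mRNA, treated footprints and untreated footprints. The labels do not say how many animals a library holds, their age or sex, the dose or the time after injection.

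In a resting fibre, tropomyosin lies along the actin filament and covers the sites where myosin binds. Troponin C binds calcium, troponin I holds the filament off until then, and troponin T ties the complex to tropomyosin. Fast and slow fibres use different genes for these parts. Tnni2, Tnnc2 and Tnnt3 encode the fast troponins, and Tnnt1, Tnni1 and Tnnc1 the slow ones, with Tnnc1 also the troponin C of the heart. Tpm1 encodes the alpha tropomyosin of fast fibres and heart, Tpm3 the slow alpha tropomyosin as well as forms outside muscle, and Tpm2 the beta tropomyosin, found in both fibre types. Mouse tibialis anterior is mostly fast.

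The listed genes held 4248818 reads in treated mRNA, 125236 in untreated mRNA, 1664122 in treated footprints and 3349015 in untreated footprints. The shallow untreated mRNA library set the precision of most mRNA ratios. Intervals cover counting error alone, since 1 library per group gives no spread between replicates. Molecular identifiers, which tell copied reads apart, were not used here. With 1 library per group there was no replicate check and no test between conditions, so each call compares libraries. Reads were scaled between libraries with TMM, a trimmed mean of the gene ratios, and levels are given as CPM, counts per 1000000 reads of the TMM-scaled total. Genes were called higher or lower where the treated to untreated ratio reached 1.5-fold, the interval excluded 1 and the pair of libraries summed to at least 50 reads. All 8 markers of skeletal muscle fibre that were looked for were listed, among them Acta1, Ckm and Ttn. All mRNA ratios moved together with the scaling. Over the listed genes, the median mRNA log2 ratio was 0.06 with TMM scaling and −0.82 with the authors' constants, and the share of called genes that were higher was 56.2% and 16.8% under these 2 scalings. Differences from the median gene and ratios between 2 genes of a library do not depend on it, and they are given for that reason.

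Tnnt1 stood apart from all other members. The slow troponin T gene had 19 reads in treated mRNA, against 37 in untreated mRNA, which is 5.62 against 236 CPM after TMM scaling. Its footprints numbered 21 in treated muscle, against 620 in untreated muscle, or 12.8 against 182 CPM. The treated library was therefore far below the untreated one in both readouts, although treated mRNA was the deepest of the 4 libraries. The mRNA ratio was 42.0-fold lower (95% interval 23.5 to 77.3), the lowest of the 996 genes compared, and the footprint ratio 14.3-fold lower (9.25 to 23.2), the third from the lowest of 999. The Tnnt1 mRNA pair summed to 56 reads, just over the minimum of 50.

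**Figure D1:**
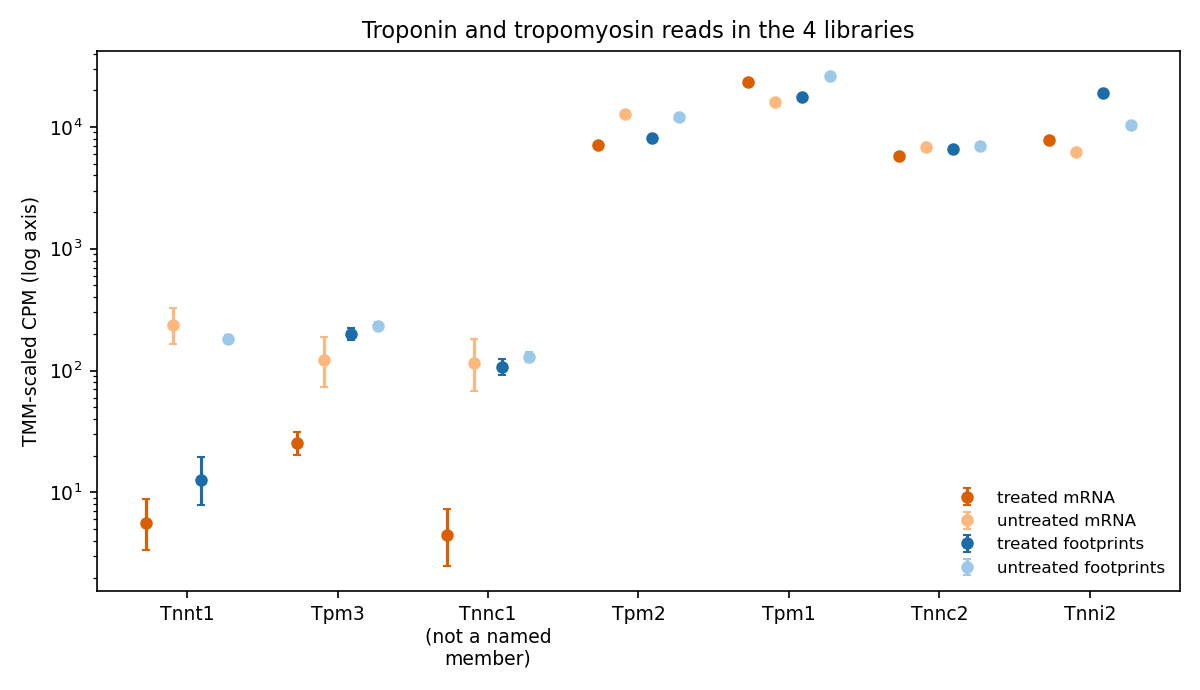
TMM-scaled CPM (vertical log axis) for the 6 listed members and Tnnc1 in each library, with treated left of untreated for mRNA (orange) and for footprints (blue). Bars are exact 95% Poisson intervals of the count. Heights may be compared within a gene only, since transcript length is not taken into account. Tnnt1 in treated muscle lies at 5.62 in mRNA and 12.8 in footprints, against 236 and 182 in untreated muscle.

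Tpm3 and Tnnc1, the other slow genes listed, were low in treated mRNA but not in treated footprints. Tpm3 had 86 reads in treated mRNA, against 19 in untreated mRNA, or 25.5 against 121 CPM. Its footprints numbered 328 in treated and 792 in untreated muscle, or 199 against 233 CPM. The Tpm3 mRNA ratio was 4.76-fold lower (2.74 to 7.90) and was called lower, whereas the footprint ratio of 0.857 (0.752 to 0.976) was called neither way. Tnnc1 had 15 reads in treated mRNA and 18 in untreated mRNA, or 4.44 against 115 CPM. This pair was under the read minimum, so the mRNA ratio, 25.9-fold lower (12.3 to 55.1), received no call. The listed genes end at 14 untreated mRNA reads, so Tpm3 and Tnnc1 stand near the lower limit of the table. Tnnc1 footprints were far more numerous, at 176 in treated and 444 in untreated muscle, and their ratio of 0.821 (0.685 to 0.979) was called neither way. Treated mRNA lay below untreated mRNA for each of the 3 slow genes. Genes were listed by their untreated mRNA reads, which at such low counts favours low mRNA ratios. A slow gene with fewer untreated mRNA reads could not appear, so the shared direction is no separate support. Treated footprints were far below untreated ones for Tnnt1 alone.

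The fast troponins had no called mRNA difference with TMM scaling. Tnni2, the inhibitory subunit of fast fibres, had 26143 reads in treated and 978 in untreated mRNA, or 7740 against 6242 CPM. Its footprints numbered 31501 in treated and 34983 in untreated muscle, or 19148 against 10272 CPM, which is nearly as many reads from a library with fewer reads in all. The Tnni2 footprint ratio was 1.86 (1.84 to 1.89) and was the only one among the members called higher. The mRNA log2 ratio of Tnni2 was 0.31 with TMM, but −0.34 under the listed totals, −0.088 under the upper quartile and −0.57 under the authors' constants, so its direction in mRNA depends on the scaling. Tnnc2, the fast troponin C, had 19590 reads in treated and 1063 in untreated mRNA, and 10809 in treated and 23619 in untreated footprints. Its mRNA ratio of 0.855 (0.804 to 0.910) and footprint ratio of 0.947 (0.926 to 0.969) were called neither way with TMM. Tnnc2 mRNA was called lower under 3 of the 5 other scalings, at a log2 ratio of −0.88 (listed totals), −0.62 (upper quartile) and −1.11 (authors' constants).

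The muscle tropomyosins Tpm1 and Tpm2 lay apart in mRNA and had nearly the same ratio in footprints. Tpm1 had 78163 reads in treated and 2504 in untreated mRNA, or 23140 against 15981 CPM. Tpm2 had 23969 reads in treated and 1988 in untreated mRNA, or 7096 against 12688 CPM. Tpm1 was thus above and Tpm2 below its untreated value. The Tpm2 mRNA ratio was 1.79-fold lower (1.71 to 1.87) and was called lower. That of Tpm1, 1.45 (1.39 to 1.51), was called neither way, and its log2 value of 0.53 became −0.12 with the listed totals and −0.35 with the authors' constants. In footprints Tpm1 had 29089 reads in treated and 89704 in untreated muscle, and Tpm2 had 13386 in treated and 40897 in untreated muscle. The footprint ratios were nearly equal, at 0.671 (0.662 to 0.680) for Tpm1 and 0.678 (0.664 to 0.691) for Tpm2. They lay just inside the 1.5-fold threshold with TMM, and both were called lower with the listed totals, the upper quartile and the authors' constants.

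**Figure D2:**
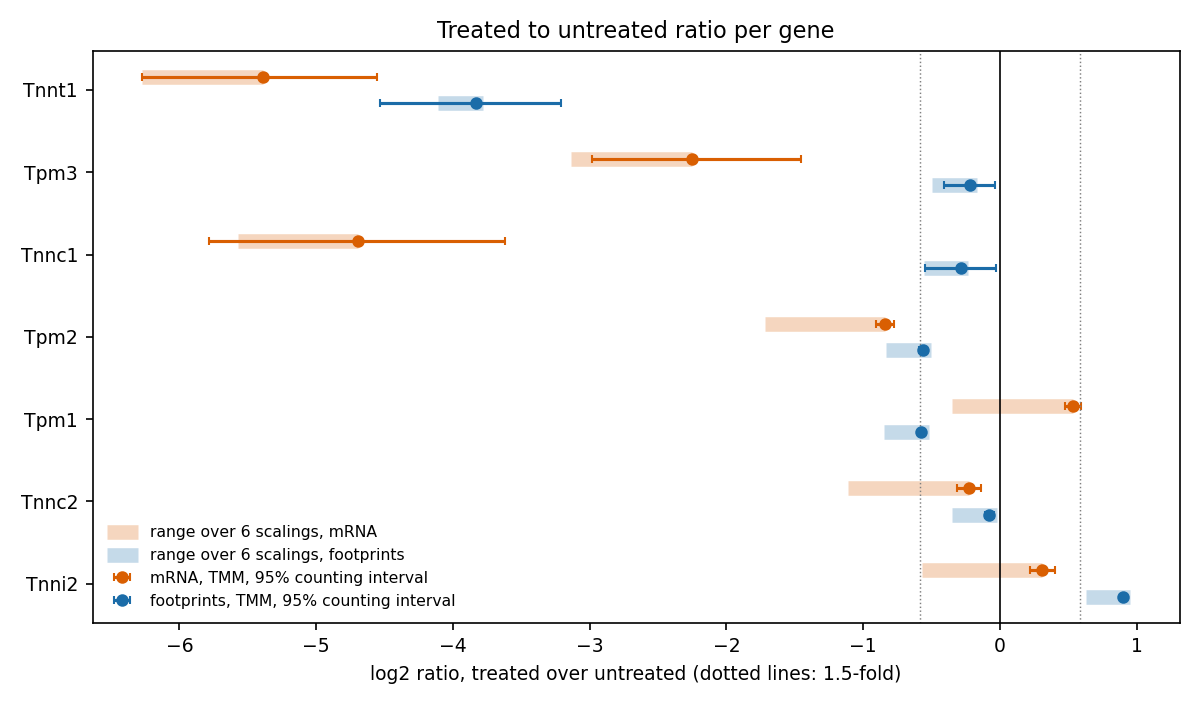
Log2 ratio of treated over untreated muscle (horizontal axis) per gene, for mRNA (orange) and footprints (blue). Points and bars are the TMM value with its 95% counting interval, pale bands span 6 library scalings, and dotted lines mark 1.5-fold. Tnnt1 is far left in both readouts, at −5.39 in mRNA and −3.83 in footprints, while Tpm3 and Tnnc1 are far left in mRNA only.

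Of the 6 members, 3 were called lower in mRNA (Tnnt1, Tpm3 and Tpm2) and 0 higher. Over all genes compared in mRNA, 24.8% were called lower and 31.8% higher. In footprints 1 member was called lower (Tnnt1) and 1 higher (Tnni2), against 26.2% lower and 19.9% higher among all genes. The members' median log2 ratio was −0.53 in mRNA, a difference of −0.59 from the median listed gene. In footprints it was −0.39, against −0.02 for all genes. When 200 reads per pair were required, Tnnt1 and Tpm3 dropped out and 1 member was called lower in mRNA. Under 3 other scalings Tnnc2 was called lower as well and 4 members were called lower in mRNA, where 46.6% (listed totals), 37.0% (upper quartile) and 54.5% (authors' constants) of all genes were called lower too. Under the same 3 scalings 3 members were called lower in footprints, beside 27.8% (listed totals), 30.2% (upper quartile) and 36.5% (authors' constants) of all genes. The footprint counts are near the background share with TMM, and the count called lower is above it under these 3 scalings. With 6 members and this dependence on scaling, they are no result about the members as a set.

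Setting slow genes against fast partners within a library removes the scaling. Among reads of Tnnt1 and Tnni2, Tnnt1 held 0.0726% (95% exact interval 0.0437 to 0.113) in treated mRNA, against 3.65% (2.58 to 4.99) in untreated mRNA. In footprints it held 0.0666% (0.0412 to 0.102) in treated muscle, against 1.74% (1.61 to 1.88) in untreated muscle. The odds of a Tnnt1 read were thus 52.1-fold lower (29.1 to 96.2) in treated mRNA and 26.6-fold lower (17.2 to 43.3) in treated footprints. Against Tnnc2 the odds were 35.9-fold lower (20.0 to 66.2) in mRNA and 13.5-fold lower (8.75 to 21.99) in footprints. The slow to fast balance of Tnnt1 therefore differed the same way in both readouts. Agreement between the partners is no separate support, since both comparisons rest on the same Tnnt1 reads. With TMM, the partners' own ratios lay between 0.855 (Tnnc2 mRNA) and 1.86 (Tnni2 footprints), far above those of Tnnt1. Either partner thus had to give this direction, and neither is the fast troponin T gene.

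The troponin C genes, of which each fibre type uses its own, behaved otherwise. Tnnc1 held 0.0765% (0.0428 to 0.126) of the reads of Tnnc1 and Tnnc2 in treated mRNA, against 1.67% (0.9898 to 2.62) in untreated mRNA. In footprints it held 1.60% (1.38 to 1.85) in treated muscle, against 1.85% (1.68 to 2.02) in untreated muscle. The share in treated mRNA was the one that lay apart, while the 3 other libraries had overlapping intervals. The odds ratio was 22.1-fold lower (10.5 to 47.2) in mRNA and 1.15-fold lower in footprints, where the ratio of 0.866 had an interval of 0.722 to 1.04 that held 1. These mRNA values rest on 15 and 18 Tnnc1 reads.

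The balance of the fast troponins differed as well. Among reads of Tnnc2 and Tnni2, Tnnc2 held 42.8% (42.4 to 43.3) in treated and 52.1% (49.9 to 54.3) in untreated mRNA. It held 25.5% (25.1 to 25.97) in treated and 40.3% (39.9 to 40.7) in untreated footprints. The odds of Tnnc2 against Tnni2 were 1.45-fold lower (1.33 to 1.59) in treated mRNA and 1.97-fold lower (1.91 to 2.02) in treated footprints.

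Among the tropomyosins, the read shares nearly coincided in the footprint libraries and lay apart in the mRNA libraries. Tpm1 held 76.5% (76.2 to 76.7) of tropomyosin reads in treated mRNA, against 55.5% (54.0 to 57.0) in untreated mRNA. In footprints it held 68.0% (67.5 to 68.4) in treated muscle, against 68.3% (68.0 to 68.5) in untreated muscle. Tpm2 held 23.4% (23.2 to 23.7) in treated and 44.1% (42.6 to 45.5) in untreated mRNA, and 31.3% (30.8 to 31.7) in treated and 31.1% (30.9 to 31.4) in untreated footprints. The footprint shares lay between those of the mRNA libraries. The odds of Tpm2 against Tpm1 were 2.59-fold lower (2.44 to 2.75) in treated mRNA, whereas the footprint odds ratio was 1.01 (0.986 to 1.03).

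Tpm3, the gene of the slow alpha tropomyosin, was a small part of tropomyosin reads everywhere. Counts are per gene, so reads of its slow form and of its forms outside muscle cannot be told apart. It held 0.0841% (0.0673 to 0.104) in treated and 0.421% (0.254 to 0.657) in untreated mRNA, and 0.766% (0.686 to 0.854) in treated and 0.603% (0.562 to 0.646) in untreated footprints. Against Tpm1 its odds were 6.90-fold lower (3.95 to 11.5) in treated mRNA but 1.28-fold higher (1.12 to 1.46) in treated footprints. With Tpm1 and Tpm2 together as the partner, the values were 5.02-fold lower (2.88 to 8.33) and 1.27-fold higher (1.12 to 1.45). Tropomyosin genes share closely similar exons, and the sources used here do not say how reads mapping to several of them were counted, so the split between them is uncertain.

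**Figure D3:**
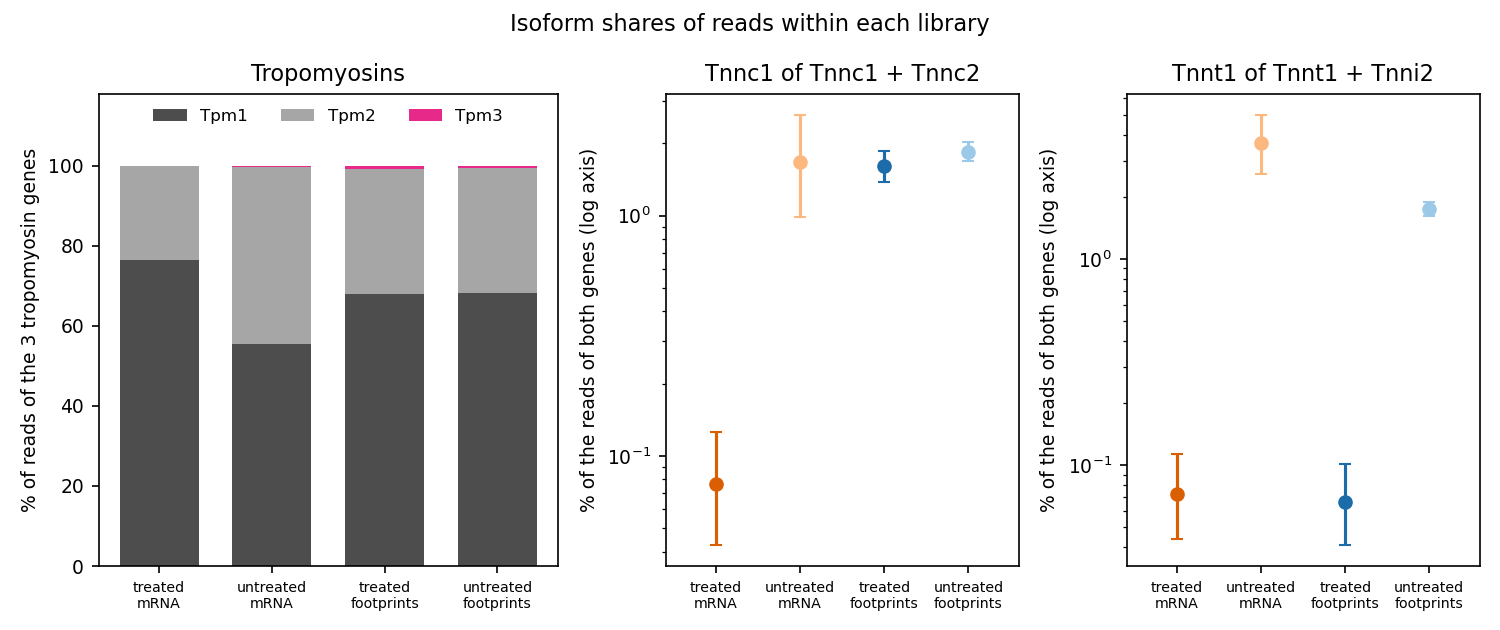
Shares of reads within each library, with treated left of untreated for mRNA and for footprints. The left panel stacks Tpm1, Tpm2 and Tpm3 as percent of tropomyosin reads, and the other panels show, on log axes with 95% exact binomial intervals, Tnnc1 as percent of both troponin C genes and Tnnt1 as percent of Tnnt1 plus Tnni2. Tropomyosin shares are alike in the footprint libraries, with Tpm1 at 68.0% in treated and 68.3% in untreated muscle, and Tnnt1 is low in both treated libraries.

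The promoter letters of Tnnt1 and Tnnc1, the slow troponin genes with the lowest treated mRNA, are shown beside those of Tnnc2, a fast gene called neither way in mRNA with TMM. They are the 250 bases before the annotated start, from RefSeq on build GRCm38.p6, read 5′ to 3′ on the strand of the gene. Of the 7 family genes listed, 6 had an entry. Tnnt1 lies at chr7:4515976-4516225 on the minus strand, Tnnc1 at chr14:31208062-31208311 on the plus strand and Tnnc2 at chr2:164779735-164779984 on the minus strand. Capitals mark E-boxes (CANNTG), the motif of the myogenic factors, and the M-CAT core (CATTCC), the motif of TEAD factors, on either strand.
Tnnt1: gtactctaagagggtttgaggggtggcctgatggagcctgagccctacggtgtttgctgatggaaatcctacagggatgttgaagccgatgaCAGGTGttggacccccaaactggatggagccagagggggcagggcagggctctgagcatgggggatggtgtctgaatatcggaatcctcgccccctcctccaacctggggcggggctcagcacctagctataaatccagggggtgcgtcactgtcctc
Tnnc1: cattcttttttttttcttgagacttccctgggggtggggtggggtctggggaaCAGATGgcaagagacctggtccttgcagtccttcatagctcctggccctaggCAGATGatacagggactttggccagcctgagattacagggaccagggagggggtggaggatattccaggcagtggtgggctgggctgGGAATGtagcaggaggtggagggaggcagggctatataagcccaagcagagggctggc
Tnnc2: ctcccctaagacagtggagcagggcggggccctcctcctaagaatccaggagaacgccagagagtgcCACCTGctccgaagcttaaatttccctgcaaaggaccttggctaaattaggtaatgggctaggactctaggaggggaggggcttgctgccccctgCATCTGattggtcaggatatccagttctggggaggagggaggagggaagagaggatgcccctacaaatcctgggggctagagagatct

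Tnnt1 held 1 E-box in this window, Tnnc1 2 and Tnnc2 2. Tnnc1 alone of these 3 held an M-CAT core, on the opposite strand, 58 to 53 bases before the start. Of the 32851 promoter windows of the same length, 66.2% held an E-box and 12.6% an M-CAT core. The MEF2 and CArG motifs, searched by name on both strands and held by 1.69% and 1.47% of windows, had 0 matches in the 3 promoters. No 2 of these motifs overlapped in the printed windows. Such matches describe letters only.

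Translation efficiency is the footprint ratio over the mRNA ratio, and it placed the members on both sides of the median gene. Of the 6 members, 3 were called higher (Tpm3, Tnnt1 and Tnni2) and 1 lower (Tpm1), against 26.0% higher and 31.9% lower among the 995 genes compared. The Tpm3 ratio was 4.17 (2.51 to 6.93), the 37th highest, that of Tnnt1 2.97 (1.48 to 5.96) and that of Tnni2 1.504 (1.41 to 1.61). Tpm1 was at 0.464 (0.445 to 0.484), while Tpm2, at 1.21 (1.15 to 1.27), and Tnnc2, at 1.11 (1.04 to 1.18), were called neither way. Relative to the median gene the log2 values were 2.17 for Tpm3, 1.68 for Tnnt1, 0.70 for Tnni2, 0.39 for Tpm2, 0.26 for Tnnc2 and −1.0002 for Tpm1, whatever the scaling. With the listed totals or the authors' constants, 5 members were called higher and 0 lower, but there 44.6% of all genes were called higher and 15.8% (listed totals) or 15.9% (authors' constants) lower. Tpm1, at a log2 ratio of −0.50 in both, was then called neither way. Listing by untreated mRNA reads favours high translation efficiency ratios for genes with few such reads, here Tpm3 and Tnnt1.

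Within each muscle, footprints per mRNA read were set against the median listed gene of that muscle. Tnni2 had 2.52 times the median gene (2.47 to 2.56) in treated muscle and 1.63 times (1.53 to 1.73) in untreated muscle. Tpm1 had 0.777 (0.766 to 0.787) in treated muscle, against 1.63 (1.57 to 1.70) in untreated muscle. The pair had thus nearly the same footprints per mRNA read in untreated muscle and differed in treated muscle. Tpm3 had 7.96 (6.26 to 10.2) in treated muscle, the 6th highest of 997 genes, against 1.89 (1.21 to 3.16) in untreated muscle. Tnnc1 stood higher still, at 24.5 (14.5 to 44.7) in treated muscle, the 2nd highest, from 15 mRNA reads, against 1.12 (0.701 to 1.91) in untreated muscle. Tnnc2 and Tpm2 stayed near the median gene, with Tnnc2 at 1.15 in treated and 1.01 in untreated muscle and Tpm2 at 1.17 in treated and 0.935 in untreated muscle. The treated value of Tnnt1, 2.31 (1.18 to 4.54), rests on 21 footprints and 19 mRNA reads, and its untreated value was 0.762 (0.546 to 1.09). Footprints cover coding sequence and mRNA reads the whole transcript, so these values are not ribosomes per coding length.

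**Figure D4:**
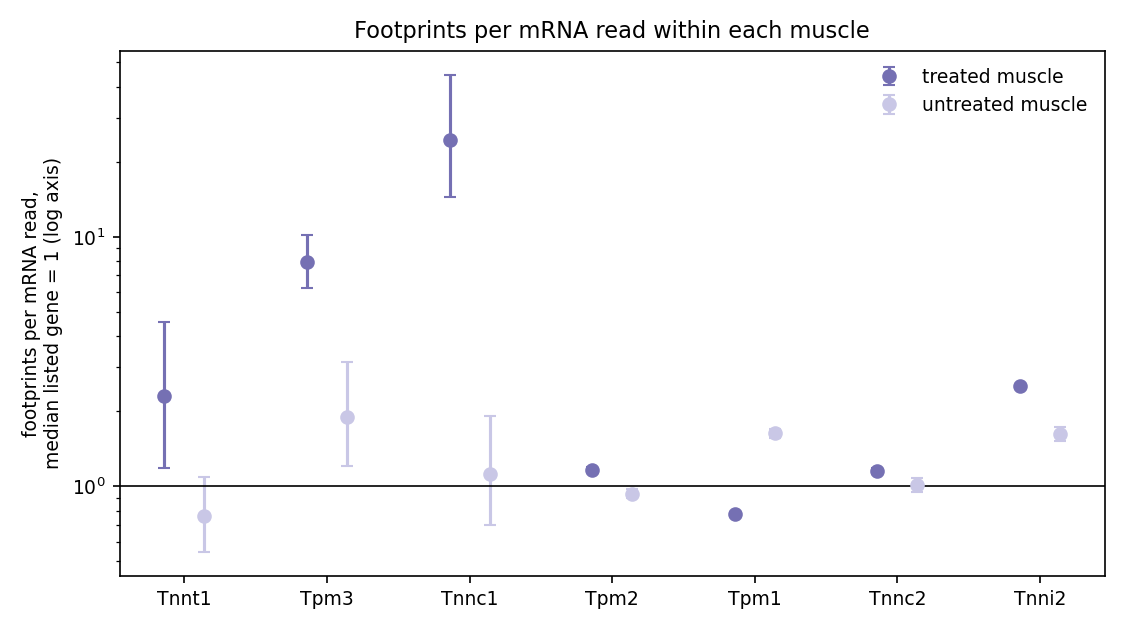
Footprints per mRNA read relative to the median listed gene (vertical log axis, median gene at 1) for each gene in treated muscle (left, dark) and untreated muscle (right, pale), with 95% exact intervals. Tpm1 lies at 0.777 in treated and 1.63 in untreated muscle, and Tpm3 at 7.96 in treated and 1.89 in untreated muscle.

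The slow genes of other fibre parts did not form a uniform group. Of 16 slow fibre genes looked for, 7 were listed, and in mRNA 4 were called lower and 1 higher. Among all genes compared in mRNA, 24.8% were called lower and 31.8% higher. The median of the list was −1.14 log2 units relative to the median gene. In footprints 4 were lower and 1 higher, against 26.2% and 19.9% of all genes, with a median of −1.07 relative to the median gene. Casq2, the slow and cardiac calsequestrin, was 21.98-fold lower (16.5 to 29.2) in treated mRNA but 2.13-fold lower (1.97 to 2.32) in treated footprints. Myom3, an M-band protein, was 10.1-fold lower (5.97 to 16.8) in mRNA and 7.28-fold lower (4.96 to 11.1) in footprints. Myh7, the slow myosin heavy chain, was 4.07-fold higher (3.36 to 4.98) in treated mRNA with a footprint ratio of 0.911 (0.891 to 0.931), so it did not share the low values of Tnnt1. Myh7b, a related myosin, had ratios of 1.47 in mRNA and 0.907 in footprints, called neither way.

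Of 16 fast fibre genes, 15 were listed, with 7 called higher and 0 lower in mRNA and 3 called each way in footprints. Over all genes, 31.8% were higher and 24.8% lower in mRNA, and 19.9% higher and 26.2% lower in footprints. The footprint counts of this list lay near these shares. At the high end of treated mRNA were Mylk4, at 4.22-fold (3.12 to 5.87), and Mylk2, at 3.81-fold (2.84 to 5.23), both kinases of myosin light chains. At the low end were Mylpf, the fast regulatory light chain, at 0.775 (0.743 to 0.810), and Myh1, the type IIx myosin, at 0.694 (0.680 to 0.709), both called neither way. The medians relative to the median gene were 0.51 in mRNA and −0.17 in footprints. Tnnc2, at −0.28, and Tnni2, at 0.25, both lay below the list's median in mRNA. In footprints both lay above it, at −0.06 for Tnnc2 and 0.92 for Tnni2.

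Among other thin filament genes, 13 of 21 were found under the symbols looked for. Of these 13, 3 were higher and 5 lower in mRNA, and 2 higher and 4 lower in footprints. Klhl41 is listed under its older symbol Kbtbd10 and is not in these counts. Its mRNA ratio was 0.663 (0.590 to 0.747), called lower. The shares over all genes were 31.8% higher and 24.8% lower in mRNA, and 19.9% higher and 26.2% lower in footprints. Neb, the gene of nebulin, which sets thin filament length, was at 5.66-fold (5.41 to 5.94) in treated mRNA, called higher, with a footprint ratio of 1.21 (1.19 to 1.22). Nrap, a protein of actin assembly at the fibre end, was higher in both, at 1.91 (1.71 to 2.15) and 2.09 (2.01 to 2.16). Actc1, the cardiac alpha-actin that immature fibres also use, was 6.23-fold lower (5.80 to 6.68) in mRNA and 4.64-fold lower (4.49 to 4.802) in footprints, and Lmod3, which nucleates thin filaments, was 2.32-fold lower (1.64 to 3.19) in mRNA. The median of the 13 genes was −0.13 in mRNA and −0.39 in footprints relative to the median gene.

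Of 12 immature fibre genes, 5 were listed, with 3 lower and 0 higher in each readout. All genes compared were 24.8% lower and 31.8% higher in mRNA, and 26.2% lower and 19.9% higher in footprints. Myl4, the light chain of embryonic and atrial myosin, was 11.7-fold lower (7.36 to 18.3) in mRNA and 2.17-fold lower (2.003 to 2.36) in footprints. The myosins Myh3, of embryonic fibres, and Myh8, of neonatal ones, had mRNA ratios of 1.11 (1.05 to 1.17) and 0.869 (0.844 to 0.894) and were called neither way.

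Fibroblast and macrophage markers were lower in treated muscle in the same libraries. Called lower among all genes were 24.8% in mRNA and 26.2% in footprints. Of 8 fibroblast and matrix genes, 7 were listed, of which 6 were lower in mRNA and 7 in footprints. Together they held 0.210% of listed reads in treated and 2.21% in untreated mRNA, and 0.284% in treated and 2.80% in untreated footprints. Of 8 macrophage genes, 4 were listed and were lower in both readouts, with 0.0165% of reads in treated and 0.125% in untreated mRNA, and 0.0556% in treated and 0.125% in untreated footprints. Of 6 smooth muscle genes only Acta2 was listed, at a ratio of 0.616 (0.482 to 0.798) in mRNA, called lower, and of 0.755 (0.728 to 0.782) in footprints, called neither way. Of 4 heart genes only Myh6, a heart myosin, was listed, at 2.47 (2.14 to 2.86) in mRNA, called higher, and at 1.07 (1.05 to 1.09) in footprints, called neither way. The heart markers Tnnt2, Tnni3 and Nppa were not analysed here. Called higher among all genes were 31.8% in mRNA and 19.9% in footprints, and 31.9% were called lower in translation efficiency. Of the 8 skeletal muscle fibre markers, 6 were called higher and 1 lower in mRNA, 2 each way in footprints, and 6 lower in translation efficiency. They held 48.4% of listed reads in treated and 27.5% in untreated mRNA, and 29.4% in treated and 24.3% in untreated footprints. Ttn alone held 26.5% in treated and 8.67% in untreated mRNA, and 8.15% in treated and 3.21% in untreated footprints. Neb held 5.14% in treated and 1.43% in untreated mRNA. Acta1, Des and Myh4 held a smaller share of treated than of untreated mRNA, so the summed share does not describe each marker. None of 4 endothelial genes was listed, and no listed gene stood at 0 reads. The part of these markers in the mRNA and translation efficiency values of the members was not tested, and in bulk muscle fewer slow fibres and less RNA per fibre cannot be told apart.

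Genes with ratios most like a member's were ranked by distance on the log2 scale over the mRNA and footprint ratios, which draw on all 4 libraries. Nearest to Tnnt1, though still at 1.27, was Col1a1, the main fibrillar collagen chain, and then Myom3 at 2.27, Hn1 at 2.55, and the collagen chains Col3a1 at 2.67 and Col1a2 at 2.81. Tnnt1 thus had no close neighbour among the 989 candidates. Tpm3 had several, with Pdrg1 at 0.22, Pa2g4 at 0.23, Arpc3, a subunit of the Arp2/3 actin nucleator, at 0.25, S100a6 at 0.26 and Apool at 0.32. None of these 5 genes is on the slow fibre list, so the pair of ratios seen for Tpm3 was not particular to slow genes. Tnni2 was closest to Hnrnph1 at 0.03, Adsl at 0.05, Sdha, a subunit of succinate dehydrogenase, at 0.18 and Luc7l2 at 0.21.

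**Figure D5:**
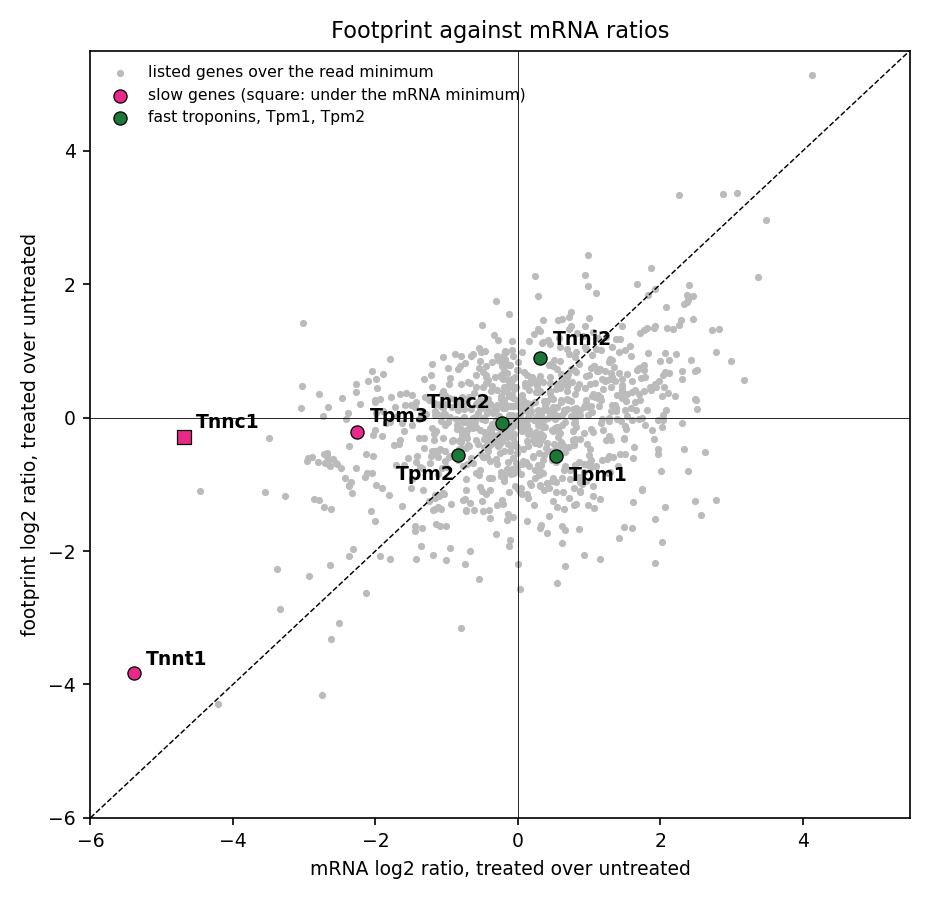
Footprint log2 ratio (vertical axis) against mRNA log2 ratio (horizontal axis), treated over untreated, for the listed genes over the read minimum (grey), the slow family genes (pink) and the fast troponins with Tpm1 and Tpm2 (green). The dashed line marks equal ratios. Tnnt1 lies at −5.39 and −3.83, away from other genes, whereas Tpm3 and Tnnc1 lie far left with footprint values of −0.22 and −0.29.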

How the data were processed

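The deposited table gives raw read counts per gene in 4 libraries and, per the file headers, normalized read counts. The deposited normalized values are each count multiplied by a single constant of its library, within 0.1, in 100% of genes and were read as CPM; whether that constant holds a normalization factor is not stated. The submitters' processing notes name Trimmomatic, STAR, edgeR and mouse build mm9. How reads were counted, with which strand setting, and what was done with multi-mapping reads is not given in the sources. Rows are sorted by untreated mRNA reads, which end at 14, so a gene with few reads in that library would not be listed. Whether this accounts for the absence of Tnnt3 was not tested. The other fast troponin genes, Tnni2 and Tnnc2, had 978 and 1063 reads in that library.

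Counts were scaled by TMM (edgeR 4.0.16, R 4.3.3) over the 1000 listed genes in all 4 libraries. Ratios of mRNA and of footprints have exact conditional binomial 95% intervals. Translation efficiency ratios, with 0.5 added to each count, have normal intervals on the log scale. Read shares have exact Clopper-Pearson intervals, and odds ratios of 2 genes are conditional maximum likelihood estimates with exact intervals. A gene was called higher or lower at a ratio of at least 1.5-fold, an interval that excluded 1 and a sum of 50 reads or more in the 2 libraries compared. The calculations were run on simulated Poisson counts without other variation between libraries, which checks the arithmetic and not the calls in these data. Scaling by DESeq2 1.42.0 size factors, by the listed total, by the upper quartile, by the total without the 20 most abundant genes of any library and by the authors' constants was tried, as were other minimums, another fold and 5 in place of 0.5.

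The members and gene lists were chosen with earlier results of these data known. The rule for named genes gave the 7 members, the other troponin and tropomyosin genes, the 2 highest and 2 lowest mRNA ratios of each fibre gene list, and the 5 genes nearest to Tnnt1, Tpm3 and Tnnt3 by mRNA and footprint ratio. Tnnt3 is not one of the listed genes, so Tnni2 took its place, a choice made after the values were seen. One gene that this rule names is not reported here. The pairs that set Tnnt1 against Tnni2 and Tnnc2, Tnnc1 against Tnnc2, and Tnnc2 against Tnni2 were likewise chosen after the table had been seen. The 11 lists were the other troponin and tropomyosin genes, other thin filament genes, fast fibre, slow fibre and immature fibre genes, and markers of skeletal muscle fibre, fibroblast and matrix, macrophage, smooth muscle and pericyte, endothelium and heart muscle. List genes were looked for by symbol, so a gene listed under an older symbol can be missed, as Klhl41 was.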

Additional observations from a re-analysis of the deposited data

How the results depend on the processing

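The direction of the mRNA log2 ratio reversed in 5 instances. Tnni2 was at 0.31 with TMM, and at −0.34 (listed totals), −0.088 (upper quartile) and −0.57 (authors' constants). Tpm1 was at 0.53 with TMM, and at −0.12 with the listed totals and −0.35 with the authors' constants. Tnnt1, Tpm2 and Tpm3 mRNA and Tnnt1 and Tnni2 footprints, and Tnnt1, Tpm3 and Tnni2 translation efficiency, were called the same way under all 6 scalings. Members called lower in mRNA numbered 3 with TMM and 4 under the listed totals, the upper quartile or the authors' constants, where Tnnc2 joined them. The number of members called lower in footprints was 1 with TMM and 3 with the listed totals, the upper quartile or the authors' constants. Members called higher in translation efficiency numbered 3 with TMM, 5 with the listed totals or the authors' constants and 1 at a minimum of 200 reads, and those called lower numbered 0 with the same 2 scalings, against 1 with TMM. At that minimum 1 member was called lower in mRNA, against 3, and at a 2-fold threshold 0 members were called higher in footprints, against 1. Each scaling shifts all genes of a comparison alike, and a higher minimum leaves out Tnnt1 and Tpm3 by construction. Over all genes, the share of called mRNAs that were higher was 56.2% under TMM and 16.8% under the authors' constants, and it lay at 24.2% (listed totals), 35.7% (upper quartile) and 43.7% (most abundant genes left out) in between. In footprints this share was 43.2% under TMM and 23.8% under the authors' constants, and in translation efficiency 45.0% under TMM and 73.9% under the listed totals.

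The comparison of Tnnt1 with Tnnt3 and the shares per coding length were not run, since Tnnt3 is not one of the listed genes and no lengths were used here. No paired analysis was possible because each group holds 1 library. Counts of 15 to 37 reads limit the slow genes' mRNA ratios.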
